A study of Mus musculus with 16 samples.

Results

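Tcf21, the gene deleted or expressed from a transgene in these mice, lies on chromosome 10, and 10 genes within 10 Mb of it are described here: Adat2, Hebp2, Hbs1l, Sgk1, Eya4, Vnn1, Stx7, Moxd1, Ccn2 and Enpp1. They are 10 of the 19707 genes listed in any of 3 deposited tables of normalized counts, and of the 104 listed genes whose start lies within 10 Mb of the start of Tcf21. All 10 were listed and measured in all 3 tables. The question was which effects may be carried with the floxed allele, and the members were chosen partly from these results, so their values against controls, and the calls counted for them, are a description and not a test of the members. RNA came from fibroblasts of the mouse heart, sorted through a Rosa26 EGFP reporter that Cre switches on and that every group carried. Mice were 8 to 12 weeks old, and all received tamoxifen, which activates the Cre. In the loss arm the genotype Tcf21-MerCreMer:Tcf21-fl (3 uninjured and 2 infused libraries) was set against Tcf21-MerCreMer alone (3 and 3). In the gain arm Pdgfra-creERT:Col1a1-TCF21 (2 infused libraries) was set against Pdgfra-creERT alone (3). Infused means 1 week of angiotensin II and phenylephrine, agents that drive cardiac fibrosis, and uninjured libraries were taken 2 weeks after tamoxifen. Both Cre drivers act in cells that express the driver gene, and the sort keeps cells in which recombination of the reporter took place. Tcf21fl/fl mice were bred with the Cre mice, but the sources used here do not state how many floxed copies the analysed mice carried, the strain backgrounds, the insertion site of the transgene or which libraries are from separate animals. The p-values therefore cover the spread between libraries, which may be technical.

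A floxed allele is made in embryonic stem cells of 1 mouse strain, and when it is bred into other mice the chromosome around it comes along until recombination removes it. Genes near the target can then differ between floxed and control animals through inherited sequence variants, through the edited locus itself, or through loss of the target's protein. Floxed mice are compared with mice without the floxed allele here, so these cannot be told apart in the loss arm. The Tcf21-MerCreMer allele is known from earlier work as an insertion into Tcf21, so loss-arm controls carry an engineered allele at this place too. TCF21 is a basic helix-loop-helix factor of the fibroblast lineage, a family whose members bind the E-box, CANNTG. The neighbours have unrelated roles. Adat2 encodes the catalytic subunit of a tRNA adenosine deaminase that makes inosine at the wobble position. Hbs1l rescues stalled ribosomes together with Pelo, and Hebp2 binds heme. Sgk1 is a kinase induced by serum and glucocorticoids, and Eya4 is a transcriptional coactivator and phosphatase that works with homeobox proteins such as Six2. Vnn1 is a cell-surface pantetheinase, Stx7 a SNARE of late endosomes, and Moxd1 a relative of the copper enzyme dopamine beta-hydroxylase. Ccn2, also called CTGF, is a secreted matrix protein tied to fibrosis, and Enpp1 makes extracellular pyrophosphate, which inhibits calcification.

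On GRCm38 chromosome 10, with gene models of GENCODE vM21, Tcf21 spans 22817281 to 22820174 on the minus strand. Toward lower coordinates lie Adat2 (13552894 to 13563376, plus strand, 9.27 Mb between gene starts), Hebp2 (18539498 to 18546076, minus strand, 4.27 Mb), Hbs1l (21295979 to 21368898, plus strand, 1.52 Mb) and Sgk1 (21882184 to 21999903, plus strand, 0.94 Mb). Toward higher coordinates lie Eya4 (23102963 to 23350786, minus strand, 0.53 Mb), Vnn1 (23894688 to 23905343, plus strand, 1.07 Mb), Stx7 (24149302 to 24190222, plus strand, 1.33 Mb) and Moxd1 (24223517 to 24302790, plus strand, 1.40 Mb). Ccn2 (24595442 to 24598683, plus strand, 1.78 Mb) and Enpp1 (24637914 to 24712159, minus strand, 1.89 Mb) follow. All 10 are protein-coding genes. Adat2 overlaps Pex3 on the other strand by 249 bp, Hbs1l overlaps 4930455C13Rik by 22970 bp, and Ccn2 overlaps Gm15270 on the other strand by 1667 bp. The SMART-seq v4 kit named in the labels does not mark strand, so reads from the overlapping stretches of 2 genes cannot be told apart.

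Of the members with a promoter record, the 3 whose groups stood furthest apart in any comparison are printed (Vnn1 stood further apart but has no record), with that of Stx7, whose values hardly differed, and of Gm51761, a noncoding gene next to Tcf21 that is described further on. They show what sequence lies at the starts of genes that stood higher or lower when TCF21 was removed or added and, for Stx7, of a gene that hardly differed. Sequences are RefSeq's on GRCm38.p6, 250 bases before to 50 after an annotated start, 5′ to 3′, and capitals mark every CANNTG:
Adat2 (chr10:13552657-13552956, plus strand): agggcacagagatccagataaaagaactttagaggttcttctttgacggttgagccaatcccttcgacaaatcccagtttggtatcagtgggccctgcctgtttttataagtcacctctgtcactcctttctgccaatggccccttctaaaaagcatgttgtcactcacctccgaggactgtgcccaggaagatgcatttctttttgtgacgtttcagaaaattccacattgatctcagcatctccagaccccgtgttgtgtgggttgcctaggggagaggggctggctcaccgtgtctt
Hebp2 (chr10:18546027-18546326, minus strand): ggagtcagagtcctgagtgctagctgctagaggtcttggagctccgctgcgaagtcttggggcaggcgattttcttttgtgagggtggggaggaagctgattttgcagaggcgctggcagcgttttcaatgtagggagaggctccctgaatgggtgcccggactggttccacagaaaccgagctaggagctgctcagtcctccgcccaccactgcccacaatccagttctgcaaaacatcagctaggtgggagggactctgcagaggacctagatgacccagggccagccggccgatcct
Moxd1 (chr10:24223267-24223566, plus strand): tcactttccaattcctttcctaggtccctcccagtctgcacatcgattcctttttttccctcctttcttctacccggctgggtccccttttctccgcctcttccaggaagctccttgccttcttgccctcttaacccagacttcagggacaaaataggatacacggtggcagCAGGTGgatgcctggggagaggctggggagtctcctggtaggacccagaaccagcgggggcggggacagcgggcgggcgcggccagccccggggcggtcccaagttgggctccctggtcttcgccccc
Stx7 (chr10:24149039-24149338, plus strand): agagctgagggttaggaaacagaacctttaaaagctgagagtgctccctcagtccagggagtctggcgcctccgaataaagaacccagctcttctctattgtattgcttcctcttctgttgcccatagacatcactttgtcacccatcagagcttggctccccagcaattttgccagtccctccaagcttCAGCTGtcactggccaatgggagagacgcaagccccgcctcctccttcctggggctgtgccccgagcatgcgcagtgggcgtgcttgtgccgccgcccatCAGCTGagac
Gm51761 (chr10:22830732-22831031, plus strand): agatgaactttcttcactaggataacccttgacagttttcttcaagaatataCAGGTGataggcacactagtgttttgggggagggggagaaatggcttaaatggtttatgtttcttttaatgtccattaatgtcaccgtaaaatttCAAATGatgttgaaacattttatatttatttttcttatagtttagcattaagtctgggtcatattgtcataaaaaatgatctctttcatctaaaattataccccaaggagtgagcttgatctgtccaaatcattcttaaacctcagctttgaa
Of the 10 members, 8 had such a window (not Vnn1 or Ccn2), and the one nearest the gene start was used. For Eya4 it was that of an annotated start 843 bp from the gene start. Sgk1 had 6 windows, and those at its other annotated starts were not searched. CANNTG, which reads as CANNTG on both strands, occurred in 5 of the 8 (Hbs1l, Sgk1, Eya4, Stx7 and Moxd1) and in 72.3% of all 32851 windows of that length. CAGCTG, 1 form of CANNTG, occurred in 2 of 8 (Sgk1 and, at 2 places, Stx7) and in 16.3% of all windows. CATTCC, the site of TEAD factors, searched with its reverse complement GGAATG, occurred in 0 of 8 and in 14.7% of all windows. The window of Moxd1 held 1 CANNTG and those of Adat2 and Hebp2 held 0, which says only that these letters are not in these windows.

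Tcf21 itself followed the labels in every library. Without injury it stood at 1244, 1254 and 1718 normalized counts in the deleted libraries against 7825, 8081 and 7507 in the controls, and after infusion at 258 and 185 against 2814, 1802 and 1509.8. In the gain arm it stood at 14819.6 and 13502 against 6058, 5145 and 6235. In a bulk library, fewer cells of a type and less RNA per cell cannot be told apart. Normalized counts summed to between 27814940 and 40970391 per library. Each comparison stays within 1 table, because the 3 tables were normalized separately and their levels are not on a common scale. Control means were compared for 16135 genes listed in all 3 tables. For 210 genes they lay within 2-fold in the uninjured loss and gain tables but over 8-fold away in the infused loss table. Of these genes 0 were members or lay within 10 Mb of Tcf21.

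Without injury, Adat2 was higher and Hebp2 lower after deletion, Vnn1 was higher, and the other members differed little or varied widely. Adat2 held 257, 287 and 291 normalized counts after deletion, and its controls held 72.97, 50.3 and 41.5. All 3 deleted libraries lay far above all 3 controls, and they lay close together. The difference was 5.07-fold, or 2.36 on the log2(value + 1) scale used for all fold changes here (SE 0.27). Hebp2 held 348, 359.9 and 364 after deletion and 606, 648 and 483 in the controls. The deleted libraries were nearly alike and all lower than the lowest control, with a log2 fold change of -0.68 (SE 0.15). Vnn1, the pantetheinase, held 344, 324 and 525 against 207, 221 and 182. Its groups did not overlap either, and the log2 fold change was 0.94 (SE 0.22). Hbs1l, the ribosome rescue factor, held 2402, 2417 and 2471 against 2894, 3117 and 2864. That is a small gap with no overlap, at -0.28 (SE 0.08).

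Eya4 was uneven among the deleted libraries, at 151, 45.2 and 40.2 against 90.6, 166 and 121 normalized counts in the controls. The first deleted library lay among the controls and the other two below all of them, and the log2 fold change was -0.90 (SE 0.50), or -1.50 without the first deleted library. Moxd1 was near the limit of detection without injury, at 0, 12.97 and 19.5 against 12.9, 16.02 and 0, and 1 library of each group was listed at 0. The fibrosis gene Ccn2 was at 51268 ± 9163 against 43679.5 ± 4989 normalized counts (SD, n = 3 and 3), and the groups overlapped. Enpp1 was at 4441 ± 653 against 4664 ± 68.3 normalized counts (SD, n = 3 and 3), and Sgk1 at 3519 ± 617 against 3980.5 ± 170.1 normalized counts (SD, n = 3 and 3). Stx7 was at 3405 ± 164 against 3156 ± 176 normalized counts (SD, n = 3 and 3). For these 4 members the log2 fold changes lay between -0.19 and 0.22. By the rule applied to all genes (limma, Benjamini-Hochberg adjusted p below 0.05), 2 of 10 members were called, Adat2 higher and Hebp2 lower, beside 3.58% of 15544 genes tested (1.63% higher and 1.96% lower). Groups did not overlap for 4 of 10 members and for 27.7% of all genes. The members were chosen with these values known, so nothing is read from those counts or from any later count of members. Adat2 was called in all 6 fits that left out 1 library and Hebp2 in 0 of 6, and Vnn1 and Eya4 were called only without the first deleted library.

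**Figure D1:**
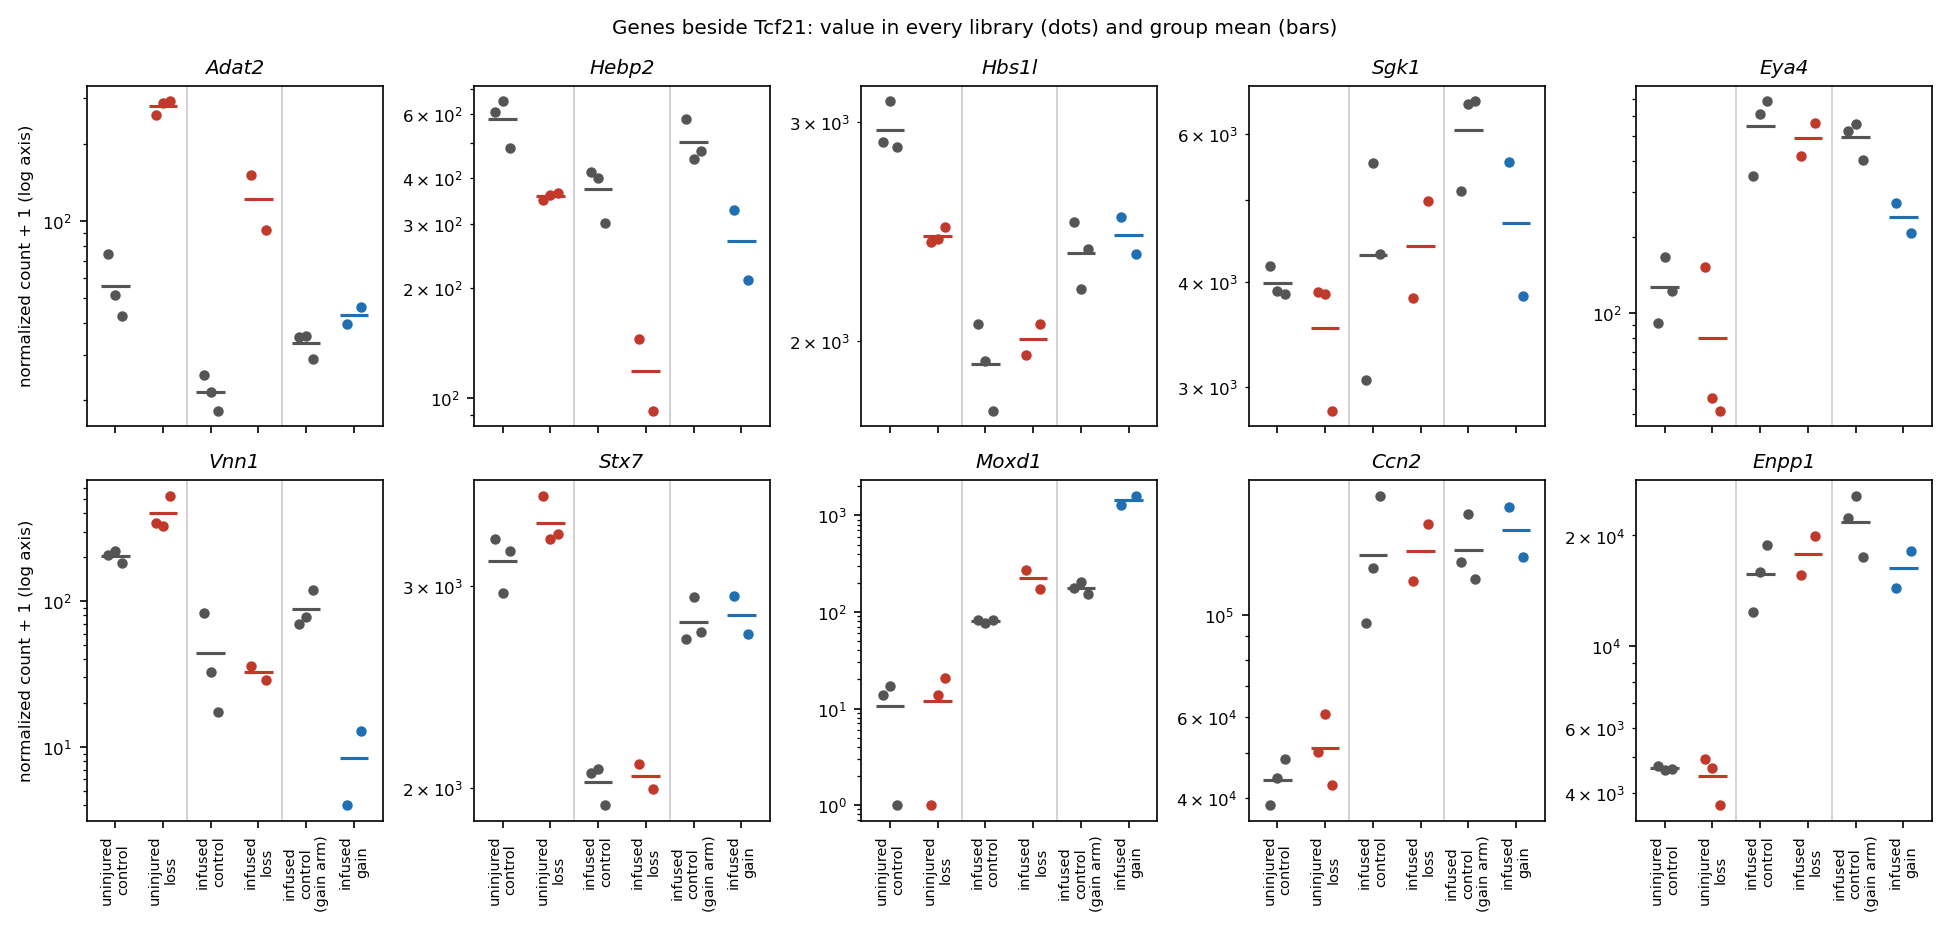
Normalized count plus 1 (log axis) of the 10 members in every library (dots) with group means (bars), for control (grey), loss (red) and gain (blue) libraries; vertical lines part the 3 tables, whose levels are not on a common scale. Adat2 is higher in every loss library than in any control of its table, Hebp2 is lower in every loss library, and Moxd1 stands apart in the gain arm (1269 and 1594 against 153 to 202).

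After infusion, in libraries that the uninjured comparison does not share, Adat2 was again higher and Hebp2 again lower after deletion, and Moxd1 was higher. Adat2 held 149 and 91.4 normalized counts after deletion, and its controls held 24.2, 20.5 and 17.2. Both deleted libraries exceeded every control, by 5.84-fold in the means, at a log2 fold change of 2.46 (SE 0.34). Hebp2 held 144 and 91.4 against 416, 399 and 300.00, both deleted libraries below every control. Its log2 fold change was -1.67 (SE 0.25). Moxd1, the monooxygenase relative, held 271 and 171 against 82.03, 75.4 and 81.99. Both deleted libraries were above 3 nearly equal controls, at 1.42 (SE 0.25). Vnn1 held 35.1 and 27.8 against 81.98, 31.8 and 16.4, so the deleted libraries lay within the range of the controls. Ccn2 was at 138440.3 ± 28111 against 135146 ± 43648 normalized counts (SD, n = 2 and 3). Eya4 was at 489.8 ± 103 against 546 ± 178 normalized counts (SD, n = 2 and 3), and both lay within the spread of their controls. The log2 fold changes of the 7 members other than Adat2, Hebp2 and Moxd1 ran from -0.17 to 0.19. By the same rule 2 of 10 members were called, Adat2 higher and Hebp2 lower, beside 0.912% of 14799 genes (0.324% higher and 0.588% lower). Groups did not overlap for 3 of 10 members and for 35% of all genes. With 2 deleted libraries these calls rest on few samples: Adat2 was called only without the first or the third control (2 of 5 fits that left out 1 library) and Hebp2 only without the third (1 of 5).

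Closest to Tcf21, 3 noncoding genes were higher after deletion, and 2 of them were almost silent in control fibroblasts. Gm51761 (22830982 to 22848672, RefSeq) starts 10.8 kb from the start of Tcf21. The nearer end of Gm46217 (22852955 to 22857526, RefSeq) lies 32.8 kb from it, and the strand of Gm46217 was not known. Both are annotated as long noncoding RNAs. Without injury Gm51761 held 91.4, 98.6 and 115 normalized counts after deletion and 1.89, 3.51 and 6.90 in the controls. Gm46217 held 88.1, 95.6 and 152 against 0.924, 6.44 and 7.71. Every deleted library lay far above every control. The log2 fold changes were 4.45 (SE 0.53, limma adjusted p = 0.00513) for Gm51761 and 4.46 (SE 0.65, limma adjusted p = 0.0123) for Gm46217, and both passed in all 6 fits that left out 1 library. After infusion Gm51761 held 24.1 and 26.7 against 1.38, 0.696 and 6.48 (log2 fold change 3.08, limma adjusted p = 0.142), which did not pass. Gm46217 held 30.7 and 37.1 against 1.00, 2.98 and 1.93 and passed at 3.60 (limma adjusted p = 0.0401), though in 0 of the 4 fits without 1 library in which it could be tested. The groups did not overlap for either gene in either loss comparison. Both genes reached the table mean of at least 10 needed for a test only through the deleted libraries. Control means of Gm51761 and Gm46217 were 4.10 and 5.02 without injury, and 2.85 and 1.97 after infusion. Their calls, and the counts and correlations near Tcf21 that include them, are therefore a description. With controls at a few normalized counts the fitted changes depend on the pseudocount and the test settings, and that of Gm46217 after infusion ranged from 1.87 to 3.88 over them. The gain table lists neither gene.

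Gm10824, the nearest listed gene on the other side, runs on the plus strand over the whole of Tcf21 (22815749 to 22823330, annotated as antisense) and shares 2894 bp with it. Without injury it held 87.9, 158 and 199 against 19.9, 24.5 and 26.99 normalized counts. It was higher in every deleted library, at 2.52 (SE 0.39, limma adjusted p = 0.0144), while Tcf21 on the same stretch was lower. The call was lost without control 1, 2 or 3 (limma adjusted p = 0.0583 to 0.0617). After infusion it held 31.1 and 35.4 against 21.4, 25.4 and 22.8, higher in both deleted libraries but not past the threshold (limma adjusted p = 0.471). In the gain arm it held 49.2 and 41.4 against 43.4, 37.8 and 48.02, with overlap. The library kit does not mark strand, so how reads of the shared stretch were divided between Gm10824 and Tcf21 cannot be told.

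**Figure D2:**
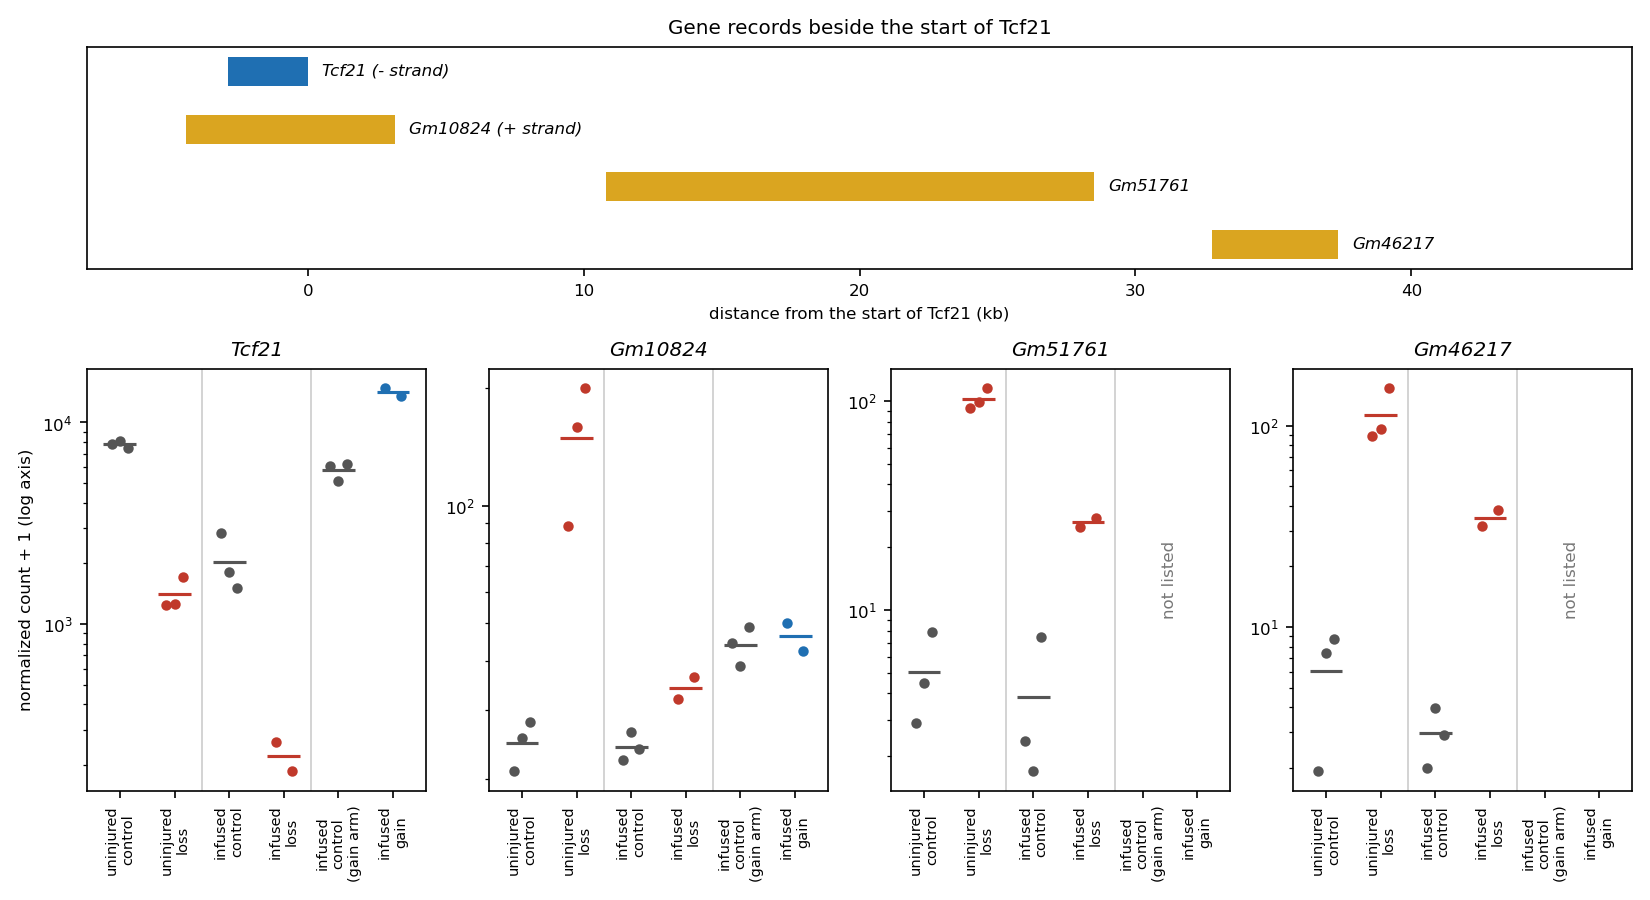
Top, extent of Tcf21 and the 3 gene records beside it in kb from the start of Tcf21; bottom, normalized count plus 1 (log axis) in every library (dots) with group means (bars), control grey, loss red, gain blue. Gm51761 and Gm46217 stand at 0.696 to 7.71 in the loss-arm controls and at 24.1 to 152 in the deleted libraries.

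Genes within 10 Mb of Tcf21 form a set defined by position, with a width chosen when earlier results of these data were known. Of these, 7 of 83 tested changed without injury (8.43%, of which 4 rose and 3 fell), beside 3.58% of all genes. These were Adat2, Gm51761, Gm46217 and Gm10824, which rose, and Hebp2, Gm48893 and Gm15270, which fell. Gm48893, a long noncoding RNA 3.88 Mb away, held 37.2, 18.5 and 42.6 against 108, 96.6 and 108 (log2 fold change -1.72, limma adjusted p = 0.0477; the call held only without deleted library 1 or 3). Gm15270, named after its values were seen, is the antisense partner of Ccn2. It held 7.33, 12.6 and 9.84 against 64.5, 44.6 and 44.3 (limma adjusted p = 0.0393, passed in 2 of 6 fits without 1 library) while Ccn2 on the other strand did not pass. In the infused loss comparison Gm15270 held 0.886 and 0 against 12.9, 18.0 and 12.7. Both deleted libraries were lower, but its mean was too low for it to be tested there. After infusion 3 of 76 changed (3.95%; Adat2, Gm46217 and Hebp2), beside 0.912%. In the gain arm 9 of 78 changed (11.5%; 4 rose and 5 fell), beside 4.14%. Leaving out the 10 members, of which some were chosen for these values, 5 of 73 (6.85%), 1 of 66 (1.52%) and 6 of 68 (8.82%) remained, and no set test was made. The loss counts include Gm46217, and the uninjured count Gm51761, which could be tested only through their values in the deleted libraries. The uninjured count also includes Gm15270 (mean 9.91 after deletion, 51.1 in controls), which could be tested only through its controls. The same holds for Vnn1 in the gain count. These calls, and the counts that include them, are a description.

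These counts rest on few libraries. The uninjured count of 7 was 3 without control 1, 2 or 3. The infused count of 3 was 1 without control 1 and 0 without control 2 or without either deleted library. The gain count of 9 was 2 without control 1, 1 without gain library 1 and 2 without gain library 2. The counts over all genes were lower in these fits as well, at 88 to 109, 32 to 121 and 124 to 222.

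**Figure D3:**
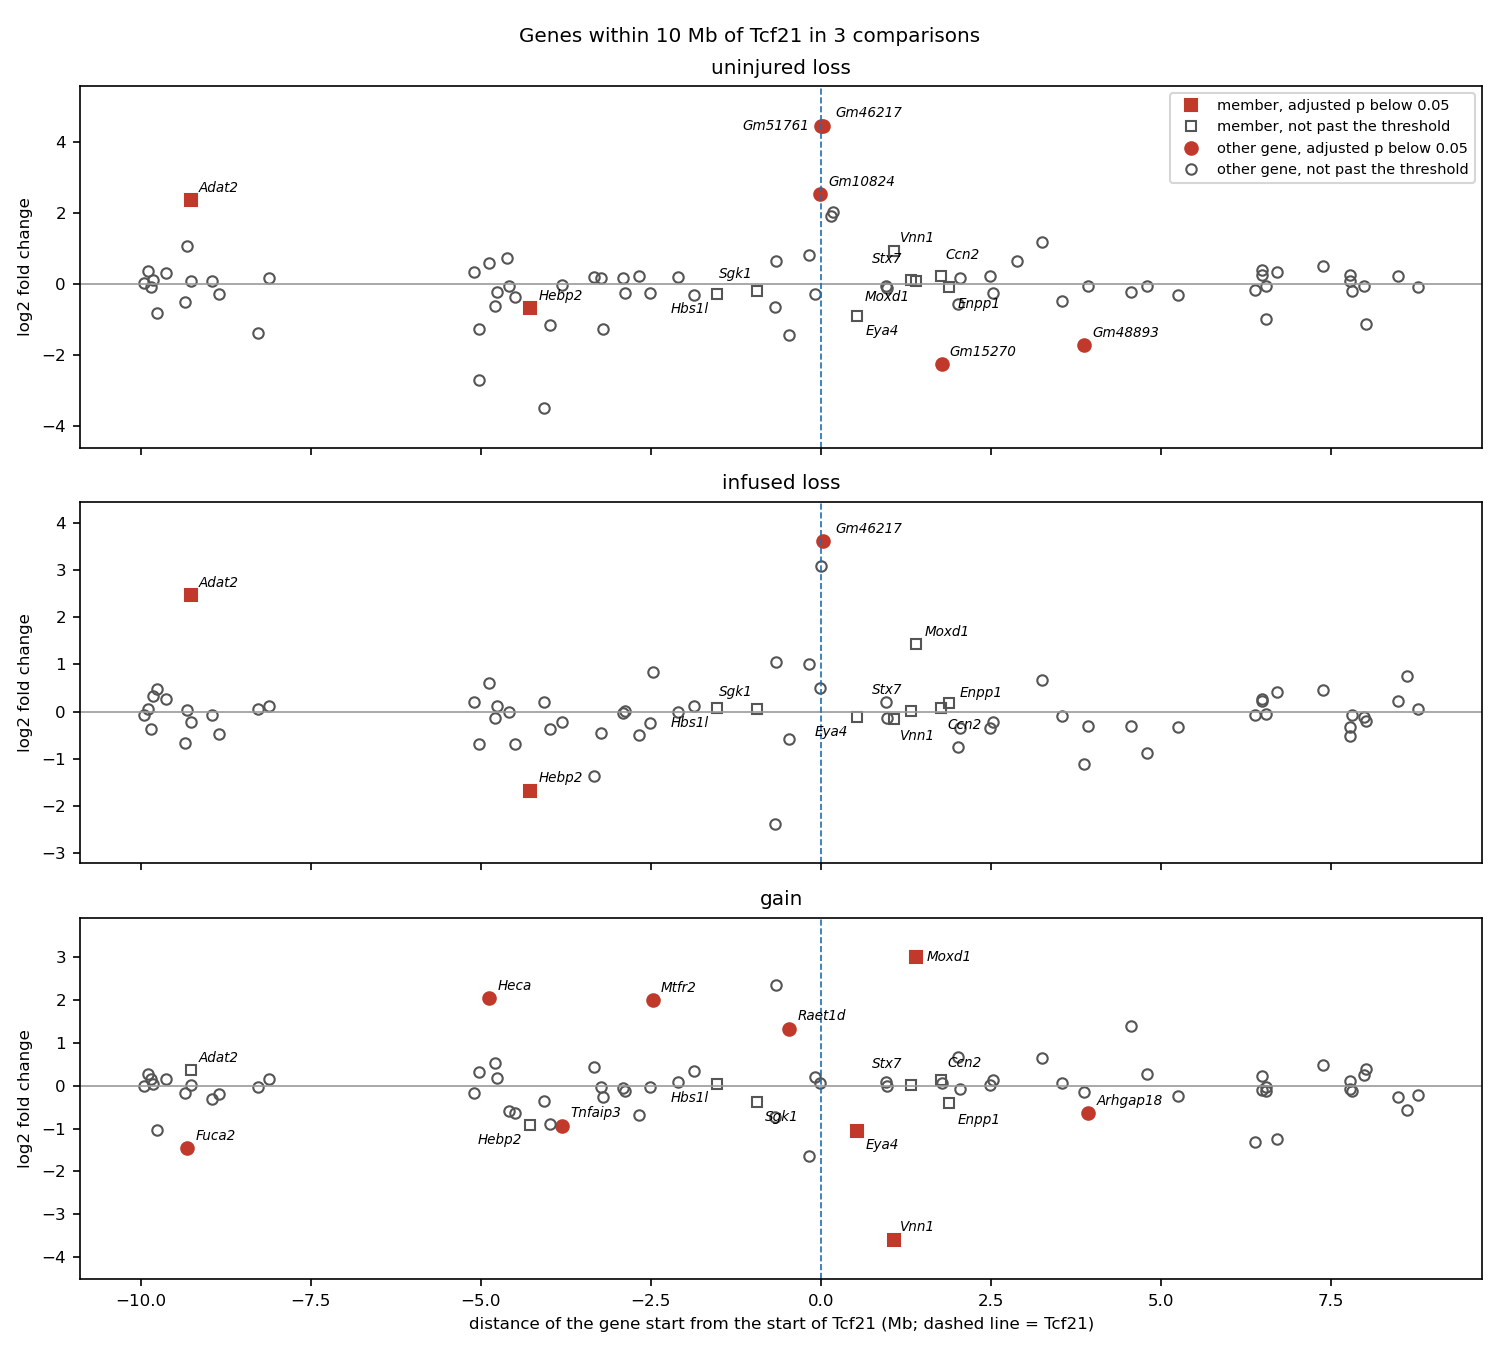
Log2 fold change of every tested gene within 10 Mb of Tcf21 against the distance of its start from that of Tcf21 in Mb, for the 3 comparisons; squares are the 10 members, circles other genes, filled red where the adjusted p was below 0.05. Called genes stand on both sides of Tcf21 and point both ways, and the highest values of both loss panels belong to Gm46217 and Gm51761, close to Tcf21.

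By distance, the 10 members were left out, since some were chosen for these values. Within 5 Mb, 5 of 42 other genes changed without injury (11.9%), 1 of 36 after infusion (2.78%) and 5 of 37 in the gain arm (13.5%). Between 5 and 10 Mb it was 0 of 31, 0 of 30 (9 and 5 at an unadjusted p below 0.05 by limma) and 1 of 31. Between 10 and 20 Mb it was 8 of 97 without injury, of which 7 fell, then 0 of 89 (18 at an unadjusted p below 0.05) and 3 of 94. Between 20 and 40 Mb it was 1 of 79, 2 of 80 (2.5%) and 4 of 80 (5%), so after infusion the share within 5 Mb was close to that of this band. Beyond 40 Mb on the same chromosome it was 12 of 487, 1 of 468 and 17 of 468. Genes around other loci that the genotypes name were counted in the same way. Within 10 Mb of Gt(ROSA)26Sor, where every group carries the reporter, 3 of 108, 0 of 105 (12 at an unadjusted p below 0.05) and 4 of 110 genes changed by limma. Around Pdgfra, whose Cre both gain-arm groups carry, it was 0 of 66, 0 of 60 (12 and 6 unadjusted) and 2 of 65. Around Col1a1, named in the transgene, whose place of insertion is not stated, it was 6 of 281, 1 of 265 and 14 of 273. Over all genes, limma's unadjusted p was below 0.05 for 3290 of 15544 without injury, 2376 of 14799 after infusion and 3138 of 15369 in the gain arm. The unadjusted counts here are to be read beside these. No test of position was made, and the differences between these shares are a description.

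**Figure D4:**
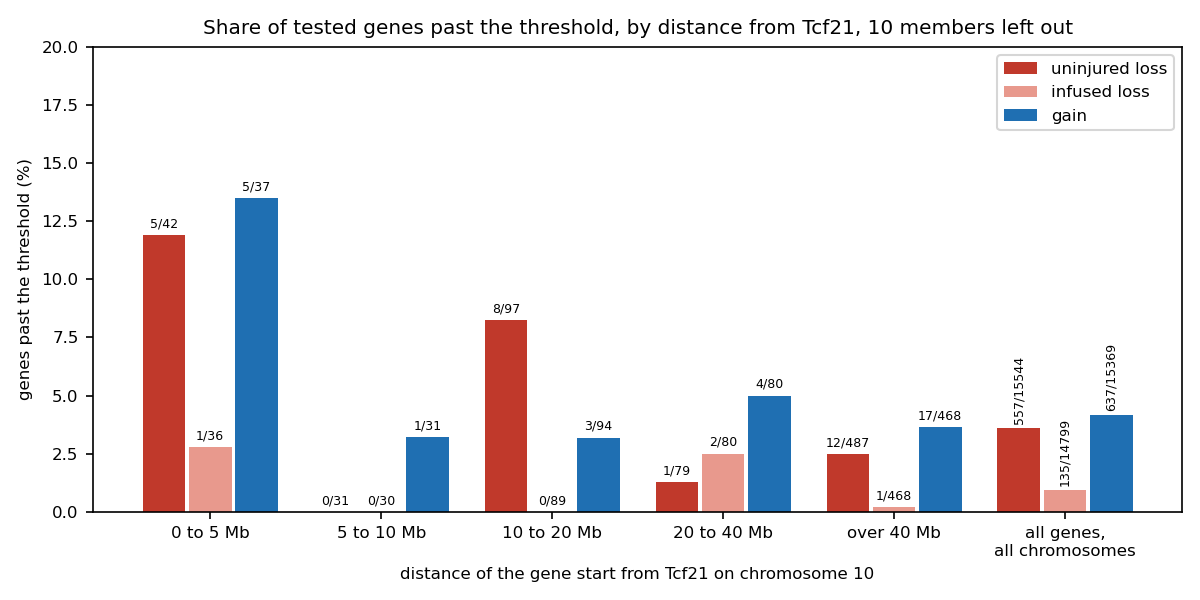
Share of tested genes past the adjusted p threshold (percent, bars from 0) in bands of distance from Tcf21 on chromosome 10, with the 10 members left out, and over all genes, members included; labels give called and tested genes. Within 5 Mb the bars stand at 5/42, 1/36 and 5/37, and after infusion 1/36 is close to the 2/80 of the band from 20 to 40 Mb.

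The loss comparisons with and without infusion share no library, so their values for genes near Tcf21 can be set side by side. Of 74 genes near Tcf21 tested in both, 50 had the same sign (67.6%), and of all 14130 genes 60.7% did. The 3 genes called after infusion, Adat2, Gm46217 and Hebp2, were all among the 6 called without injury, which is 100% of the one list and 50% of the other. Adat2 and Hebp2 are members chosen partly from these results; without the 10 members 64 genes remain, of which 1 (Gm46217) was called in both, 100% of the 1 called after infusion and 25% of the 4 called without injury. Over all genes 43 were called in both, 35.0% of the infused and 8.10% of the uninjured calls. Across the 74 genes the log2 fold changes had Pearson's r of 0.706 (0.711 across the 64 without members), against 0.386 across all genes. Genes are not independent replicates, and Adat2, Gm46217 and Gm51761 have large values on both axes. Gm46217 and Gm51761 could be tested only through their values in the deleted libraries. The loss effect near Tcf21 was not shown to differ with infusion. In limma's interaction contrast 0 of 74 genes passed, beside 0.149% of 14130 genes. The lowest adjusted p of the 74 was 0.224. Of them 16 had an unadjusted p below 0.05, a level not counted over all genes for this contrast.

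**Figure D5:**
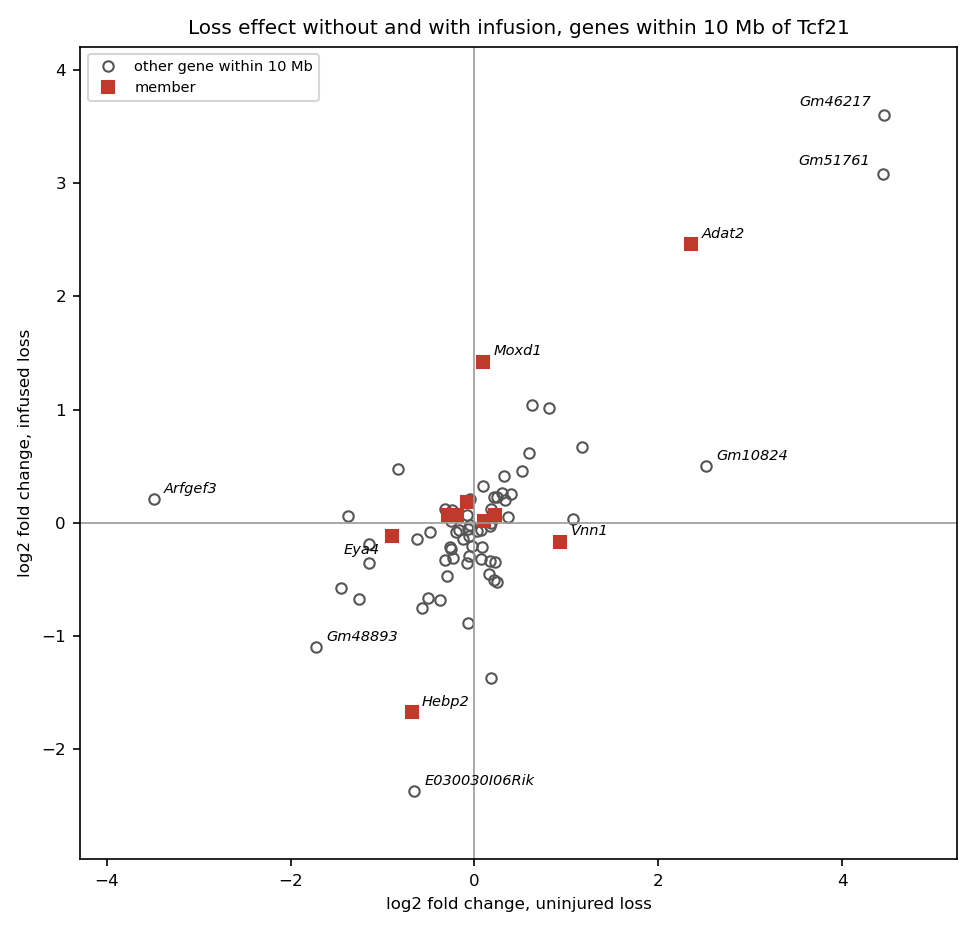
Log2 fold change after deletion without injury (x axis) and after infusion (y axis) for the 74 genes within 10 Mb of Tcf21 tested in both; red squares are members, and the 5 unlabelled squares near the origin are Hbs1l, Sgk1, Stx7, Ccn2 and Enpp1. Adat2 lies at 2.36 and 2.46, beside Gm46217 (4.46 and 3.60) and Gm51761 (4.45 and 3.08) in the upper right.

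Adat2 differed most among the members without injury, so the genes most like it were sought. Over the 16 libraries, each value taken relative to its table's control mean, Pcdhgb8 was most like Adat2 of 13938 genes compared (Pearson's r 0.960). Mon2, a trafficking regulator (0.938), Rab1b, a GTPase of early secretion (0.935), Gusb, the lysosomal beta-glucuronidase (0.932), and Gpatch11 (0.927) followed. These points share the loss-arm libraries in which Adat2 was high. Pcdhgb8, a gamma protocadherin whose 3′ exons are common to its cluster, so that its reads may be divided among relatives, had log2 fold changes of 3.69, 4.15 and 0.15 in uninjured loss, infused loss and gain. Mon2 had 2.10, 1.69 and 0.12. Mon2 is on chromosome 10 but 100.3 Mb from Tcf21, and the other 4 are on other chromosomes. Pex3, whose start overlaps that of Adat2 on the other strand and which was named after its values were seen, did not follow it: its log2 fold changes were 0.08, -0.22 and 0.02.

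In the gain arm, where no floxed Tcf21 is present, the members called were Moxd1, Vnn1 and Eya4, and in the loss arm Adat2 and Hebp2. Groups of Moxd1, Vnn1, Adat2 and Hebp2 did not overlap here nor in a loss comparison, infused for Moxd1, uninjured for Vnn1 and both for the others. Over all genes, groups did not overlap for 27.7% in uninjured loss, 35% in infused loss and 39.3% in gain. How many genes did so in several comparisons was not counted, so nothing is read from it. Moxd1 held 1269 and 1594 normalized counts with the transgene, and its controls held 178, 202 and 153. Both gain libraries lay far above every control, by 8.06-fold in the means (log2 fold change 3.003, SE 0.18). Vnn1 held 3.00 and 11.9 against 68.6, 76.8 and 119. It was almost absent from both gain libraries, at -3.59 (SE 0.57). Its mean was 7.45 in the gain libraries and 87.99 in the controls. It thus reached the table mean of at least 10 needed for a test only through the controls, and its call is a description. Eya4 held 271 and 205 against 523, 557 and 399.6, lower in both gain libraries, at -1.05 (SE 0.20). Hebp2 held 326 and 210.03 against 579, 449 and 473. It was lower than every control here as well as in both loss comparisons, with -0.92 (SE 0.22).

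Adat2 held 38.6 and 45.2 against 34.2, 34.6 and 28.1 in the gain arm, a small gap without overlap, at 0.37 (SE 0.34). Enpp1 held 14443 and 18111 against 22252, 25620.2 and 17532, with overlap and a log2 fold change of -0.41 (SE 0.18). Sgk1 held 5547 and 3846 against 5129.9, 6511 and 6552, also with overlap. Hbs1l, Stx7 and Ccn2 had log2 fold changes of 0.05, 0.02 and 0.14. By the same rule 3 of 10 members were called, Moxd1 higher and Vnn1 and Eya4 lower, beside 4.14% of 15369 genes (1.57% higher and 2.57% lower), and groups did not overlap for 5 of 10 members and for 39.3% of all genes. Moxd1 was called in all 5 fits without 1 library. Vnn1 was called in 3 of 5 (not without control 1 or gain library 1), and Eya4 only without control 3. Vnn1 stood in opposite directions in uninjured loss (0.94) and gain (-3.59), while Moxd1 was higher in both infused comparisons (1.42 and 3.003). Those contrasts share no library.

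Beside the members, 6 genes within 10 Mb changed in the gain arm, all by limma with Benjamini-Hochberg adjustment. Fuca2, a secreted fucosidase (log2 fold change -1.45, adjusted p = 0.0162), Tnfaip3, the NF-kappaB inhibitor A20 (-0.93, adjusted p = 0.0164), and Arhgap18, a GTPase-activating protein (-0.64, adjusted p = 0.0254), fell. Tnfaip3 held 871 and 745 against 1433, 1412 and 1785 normalized counts, well apart. Mtfr2, a regulator of mitochondrial fission (2.003, adjusted p = 0.0258), Heca (2.05, adjusted p = 0.04) and Raet1d, a ligand of an activating receptor of natural killer cells (1.34, adjusted p = 0.0315), rose. Raet1d overlaps Raet1e of the same multigene family, so its reads are uncertain. Without gain library 1, or without gain library 2, 0 of these 6 passed, and without control 1 only Tnfaip3 did. Their adjusted p in the uninjured loss comparison was 0.111 (Fuca2) or more where tested.

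Relatives and partners of the members were counted from a list of 59 genes set by family. It includes Enpp3, which lies 2.02 Mb from Tcf21 and is also counted among its neighbours. Without injury 2 of 53 tested relatives rose and 0 fell: Alpl, the phosphatase that breaks down the pyrophosphate Enpp1 makes (log2 fold change 1.14, limma adjusted p = 0.0155), and Six2, a homeobox partner of Eya proteins (1.31, limma adjusted p = 0.0488). After infusion 1 of 53 rose and 0 fell. It was Pam, a copper monooxygenase related to Moxd1, with 4938 and 4669.8 against 967, 376 and 691 normalized counts (limma adjusted p = 0.0202). In the gain arm 0 of 53 rose and 6 fell: Enpp5 (-1.998, limma adjusted p = 0.00234), Ccn3 (-1.93, limma adjusted p = 0.0143), Adarb1, Ndrg1, Enpp4 and Eya2. With 1 library left out, Enpp5 passed in 5 of 5 fits, Ccn3 in 3 of 5, Pam in 3 of 5, Alpl in 4 of 6 and Six2 in 0 of 6. Median log2 fold changes of the list were -0.019, 0.030 and -0.089, beside -0.012, 0.00017 and 0.0066 over all genes. The shares called were 3.77%, 1.89% and 11.3% of the relatives, beside 3.58%, 0.912% and 4.14% of all genes, so the share without injury was near that of all genes. Adat1 and Adat3, the other tRNA deaminases of the family, did not pass in any comparison, nor did any of the 6 ribosome rescue genes or the 7 endosomal SNAREs.

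Ccn2 is a known target of YAP and TEAD. On a list of 25 further targets and pathway genes, 2 of 24 tested rose without injury (Igfbp3 and F3) and 0 fell. After infusion 0 of 25 passed by limma (3 at an unadjusted p below 0.05), and in the gain arm 1 rose (Nuak2) and 1 fell (Tgfb2) of 25. These are 8.33%, 0% and 8% of those tested, with medians of -0.043, -0.079 and 0.016. Of 20 genes that respond to glucocorticoid or serum, as Sgk1 does, 0 passed without injury (5 unadjusted), 0 after infusion (8 unadjusted), and 2 fell in the gain arm (Ier3 and Fosb; 10%, with 15 of 20 unadjusted), with medians of -0.041, -0.44 and -0.75. The shares and medians over all genes are those given for the relatives. The unadjusted counts over all genes are those given with the distance bands. Ccn2 and Sgk1 themselves were called in no comparison.

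Markers of other cells moved in part with the groups, and their part in these results was not tested. Of 8 fibroblast markers only Tcf21 passed, in each comparison, but their summed level was lower in every deleted library without injury (3534062 to 3646535 against 3757284 to 4092602 normalized counts) and in every gain library (1806887 to 1822588 against 2480372 to 2886752). After infusion the sums in the loss arm overlapped (1837530 to 2017343 against 1654787 to 2149465). Without injury 3 of 7 mural markers fell (Abcc9, Cspg4 and Kcnj8), beside 1.96% of all genes. The 7 summed to 8328 to 9475 after deletion against 12857 to 14800 in the controls. In the other comparisons 0 mural markers were called and the sums overlapped. They were 4316 to 5215 against 4680 to 5958 after infusion, and 4128 to 4911 against 4026 to 5173 in the gain arm. The 6 endothelial markers summed lower in every changed library of each comparison: 12134 to 13748 against 15734 to 15868 without injury, 2753 to 3212 against 3670 to 6710 after infusion, and 5122 to 6287 against 7957 to 11029 in the gain arm. Of these markers only Tek fell, in the gain arm. Myeloid markers summed to 819 to 1114 after deletion against 665 to 713 without injury, with 0 of 6 called, and overlapped in the other comparisons. Erythroid markers summed to 12.7 to 1029 after deletion against 23.4 to 31.2 without injury, and to 151 to 460.3 against 19.3 to 44.9 after infusion, where Hba-a1 rose. Cardiomyocyte markers summed to 808 to 829 in the gain libraries against 573 to 675, with Actc1 risen. Lymphoid markers Cd3e, Ms4a1 and Nkg7 were listed in no table.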

How the data were processed

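Bulk RNA was measured in 16 libraries of 6 groups. The authors deposited, in each of 3 tables, a normalized signal per gene: counts estimated from the reads and divided by factors that the names and values of the tables show. The submitters' processing notes list kallisto, DESeq2 and GRCm38, with no version. Whole reads were not recovered (35.6% to 67.4% of low values lay within 0.03 of a whole step), so no count model was fitted.

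Genes with a table mean of at least 10 were tested on log2(value + 1), which understates changes of low genes, with limma 3.58.1 in R 4.3.3 (lmFit and eBayes with trend, both sides tested, threshold 0.05 on the p adjusted by Benjamini and Hochberg), 2 groups per fit. The interaction contrast used the 4 loss groups. Tests were checked on data with known changes.

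Positions came from GENCODE vM21 or RefSeq, matched by symbol for 96.0% to 96.7% of symbols, and distance runs between gene starts. Where no strand was known, the lower coordinate was taken as the start. Members, window and lists were chosen with earlier results of these data known. Neighbours named are up to 8 called genes per comparison with a mean of at least 50 and the nearest on each side; relatives named are up to 4 called per comparison by p, and genes named beyond these were chosen after their values were seen. Alternatives varied the pseudocount, filter, scaling, variance model, library weights, replicate block and window, and left out each library.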

Additional observations from a re-analysis of the deposited data

How the results depend on the processing

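The 423 alternative values of the members' log2 fold changes included 0 reversals of a called value and 18 changes of sign of values not called; 2 moved, both with a pseudocount of 10 (Adat2 after infusion to 2.06, Vnn1 in the gain arm to -2.50). Calls of members were less stable. In the settings that kept all libraries, uninjured Adat2 and gain Moxd1 stayed called, and limma's adjusted p left the threshold for uninjured Hebp2 with no filter (0.0512), upper quartile scaling (0.0527), no variance trend (0.118) and the replicate block (0.0981), for infused Hebp2 with upper quartile scaling (0.0513) and no trend (0.135), for infused Adat2 without a trend (0.0562) and in the fit on genes with a mean of 50 or more (0.0579), and for gain Vnn1 (0.0874) and Eya4 (0.124) with no trend. Calls were gained for uninjured Vnn1 on genes with a mean of 50 or more (0.0452), by quantile normalization (0.0476) and library weights (0.0358), and, with library weights and the replicate block, for infused Moxd1 (0.0327 and 0.00938) and gain Hebp2 (0.0459 and 0.00863), and with the block for gain Enpp1 (0.00386). Counts of calls moved more. Over all genes, 557 (uninjured loss), 135 (infused loss) and 637 (gain) became 94, 72 and 25 without a variance trend and 949, 308 and 1013 with library weights. Leaving out 1 library gave 88 to 891, 32 to 175 and 124 to 821; the arm left with 1 library in the infused and gain comparisons was then assumed to vary like its controls. Within 10 Mb of Tcf21, the counts of 7, 3 and 9 became 3, 1 and 1 without a variance trend, and 3 to 9, 0 to 4 and 1 to 10 without 1 library. Library weights gave 6 and 14 for infused loss and gain. For infused loss no filter gave 5 and a mean of at least 50 gave 1, and for uninjured loss a window of 20 Mb gave 15. The interaction count near Tcf21 was 0 in every alternative run. Deviations of same-numbered libraries had correlations of -0.054 to 0.025 uninjured, -0.042 and 0.176 infused, and 0.062 and 0.095 gain. Where a group has 2 libraries their deviations mirror each other, so these values cannot show that pairing is absent. The numbers were not taken to pair libraries. With the replicate block the counts were 227, 1462 and 1842 over all genes and 4, 13 and 19 near Tcf21. The causes of these moves were not tested. Depth is unknown, which leaves Gm51761, Gm46217 and uninjured Moxd1, at a few normalized counts in controls, the least certain.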
